A study of Homo sapiens with 14 samples.

Results

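This account covers 42 genes of homologous recombination and the Fanconi anemia pathway, read out of the 62757 genes counted in each library. The genes were listed by pathway, with a rule that uses no measured value, though earlier results of these data were known when they were chosen. Each gene was matched to 1 Ensembl gene ID. They were followed in 14 RNA sequencing libraries from OVCAR3 and A2780, 2 established human ovarian cancer cell lines. Each of the 7 groups held 2 libraries. The parental groups are labelled WT and the groups labelled DDP are given by the submitters as cisplatin-resistant derivatives of the same line (DDP is cisplatin, a platinum drug that crosslinks DNA). The remaining 3 groups are OVCAR3-DDP cells with a hairpin RNA: shNC, the control hairpin, and sh1 and sh2, which target ADAR1 (gene ADAR), an enzyme that edits adenosines of double-stranded RNA into inosines. The hairpin groups thus carry both the resistance label and a hairpin. For the untransduced OVCAR3-DDP libraries the label is in doubt, since their marker genes, given below, are unlike those of parental OVCAR3 and of the hairpin cells, so OVCAR3-DDP without a hairpin name means the libraries labelled so. The sources used here do not give whether a resistant line was 1 clone or a pool, how resistance was raised, or whether drug was present at harvest. The labels also do not say that libraries of a group came from separate cultures, so p-values measure the spread between these libraries, which may be technical.

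Homologous recombination repairs a double-strand break by copying an intact sister DNA molecule, and it works mainly in S and G2 phase. The MRN complex and RBBP8 trim the broken ends, BRCA1, PALB2 and BRCA2 load the recombinase on the exposed strand, and helicases and nucleases then take apart the joined molecules. The Fanconi anemia pathway handles crosslinks between DNA strands, such as those cisplatin makes: a core complex attaches ubiquitin to FANCD2 and FANCI, which call in nucleases and recombination. In ovarian cancer, loss of BRCA1 or BRCA2 is known for sensitivity to platinum drugs.

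Stretches upstream of 4 members are shown because the results turn on these genes: BRIP1 and BLM were called with both ADAR1 hairpins, BRCA2 was called with sh2, and FANCD2 had the largest rise in the libraries labelled OVCAR3-DDP. They come from RefSeq (GRCh38.p14), run 5′ to 3′ on the gene's strand, and hold only bases before the start that lie in no annotated exon. Capitals mark motif matches on either strand. The BRIP1 stretch is chr17:61863529-61863778 (minus strand), that of BLM chr15:90717142-90717326 (plus), that of BRCA2 chr13:32315345-32315473 (plus) and that of FANCD2 chr3:10026366-10026413 (plus).
BRIP1: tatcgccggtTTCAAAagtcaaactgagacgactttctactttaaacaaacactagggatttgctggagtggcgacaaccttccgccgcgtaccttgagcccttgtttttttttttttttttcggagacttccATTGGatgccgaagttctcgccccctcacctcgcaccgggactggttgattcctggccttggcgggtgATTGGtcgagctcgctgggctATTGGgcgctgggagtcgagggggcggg
BLM: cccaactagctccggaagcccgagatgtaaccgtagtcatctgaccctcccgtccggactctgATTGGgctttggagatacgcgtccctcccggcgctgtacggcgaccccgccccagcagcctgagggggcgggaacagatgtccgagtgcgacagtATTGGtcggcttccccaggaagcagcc
BRCA2: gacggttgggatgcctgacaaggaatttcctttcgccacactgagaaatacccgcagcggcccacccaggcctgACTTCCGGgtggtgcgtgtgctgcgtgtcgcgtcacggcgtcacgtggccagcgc
FANCD2: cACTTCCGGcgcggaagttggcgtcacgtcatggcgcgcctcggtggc
In BRIP1 the capitals are 1 match to TTTGAA (the CHR word of many genes of late cell cycle) and 3 matches to CCAAT, and in BLM they are 2 matches to CCAAT. In BRCA2 and FANCD2 they are 1 match each to CCGGAAGT, an ETS-type word added after the stretches had been read. Over the 250 bases before the start on both strands, CCAAT stood in 17 of the 37 members with an entry (45.9%) and in 37.0% of 27305 genes. TTTGAA stood in 4 of 37 (10.8%) against 16.1%, and CCGGAAGT in 7 of 37 (18.9%) against 4.13%. Any of 4 E2F-type words (TTTCCCGC, TTTGGCGC, TTTCGCGC, TTTGCCGC) stood in 3 of 37 (8.11%), RMI1, FANCA and FANCC, against 3.40% of all genes. A match is a run of letters and no more.

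Assigned counts ran from 20428538 to 23746370 in the 6 hairpin libraries and from 31195174 to 49115255 in the other 8, and every member reached at least 28 counts in every library. Levels below are CPM, each library's counts brought to a common total by its size and by TMM, edgeR's trimmed mean of M values. The members took 0.151% to 0.200% of counts with a hairpin and 0.198% to 0.235% without. Mitochondrial messenger RNA was 0.726% to 0.947% of counts with a hairpin and 2.31% to 3.51% without, so the 2 sets differ in more than the hairpin. The untransduced libraries labelled OVCAR3-DDP went against their label in marker genes. A list of 14 ovarian carcinoma markers summed to 3899 to 4378 CPM in parental OVCAR3, 502 to 538 CPM in OVCAR3-DDP and 5551 to 5993 CPM with shNC. Of the 13 list genes tested, 12 were lower and 1 higher in OVCAR3-DDP than in parental OVCAR3, and with shNC 7 were higher and none lower. The keratin KRT7 was at 1009 and 1133 CPM in parental OVCAR3, at 0.107 and 0.345 CPM in OVCAR3-DDP and at 1079 and 1191 CPM with shNC. The keratin KRT19 was at 0 in both OVCAR3-DDP libraries, and FOLR1, the folate receptor, was at 421 and 430.5 CPM in the parental line, at 0.215 and 0.345 CPM in OVCAR3-DDP and at 1293 and 1468 CPM with shNC. The transcription factor WT1 went the other way, at 0 in parental OVCAR3 and with shNC and at 17.3 and 17.7 CPM in OVCAR3-DDP. The shNC cells, which carry the same resistance label, thus still expressed the markers that were high in parental OVCAR3. Their levels were not those of the parental line, since 7 of the 13 tested were higher. The untransduced libraries had lost most of these markers. Whether the latter derive from OVCAR3 was not tested, and a fold change against parental OVCAR3 may compare different cells. The same list summed to 193 to 206 CPM in parental A2780 and 281 to 315 CPM in A2780-DDP, with KRT7, WT1 and MUC16 at 0 in the parental libraries. Their part in the results was not tested. Results of OVCAR3-DDP are therefore given beside shNC against parental OVCAR3, a comparison that shares the parental libraries.

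Per kilobase of exon, and averaged over the 7 groups, the highest levels belonged to UBE2T, the enzyme that passes ubiquitin to FANCD2 (38.4 CPM per kb), FANCI (29.9) and RAD54L (21.6). The lowest belonged to RAD50 (0.709), RAD54B (0.925) and RAD51B (1.42). RAD50 and RAD54B share 79.7% and 59.1% of their exon bases with another gene on the same strand. Reads that fit both genes may have gone to neither, so the ranks of RAD50 and RAD54B are uncertain. The members that varied most between groups were RAD50, 12.4-fold between its highest and lowest group means, FANCB (11.1-fold) and FANCF (8.34-fold). The plot of levels by library shows these as the strongest colours. RAD50 was lowest in OVCAR3-DDP, FANCB lowest in A2780 and highest with hairpins, and FANCF lowest in OVCAR3-DDP and highest in A2780.

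**Figure D1:**
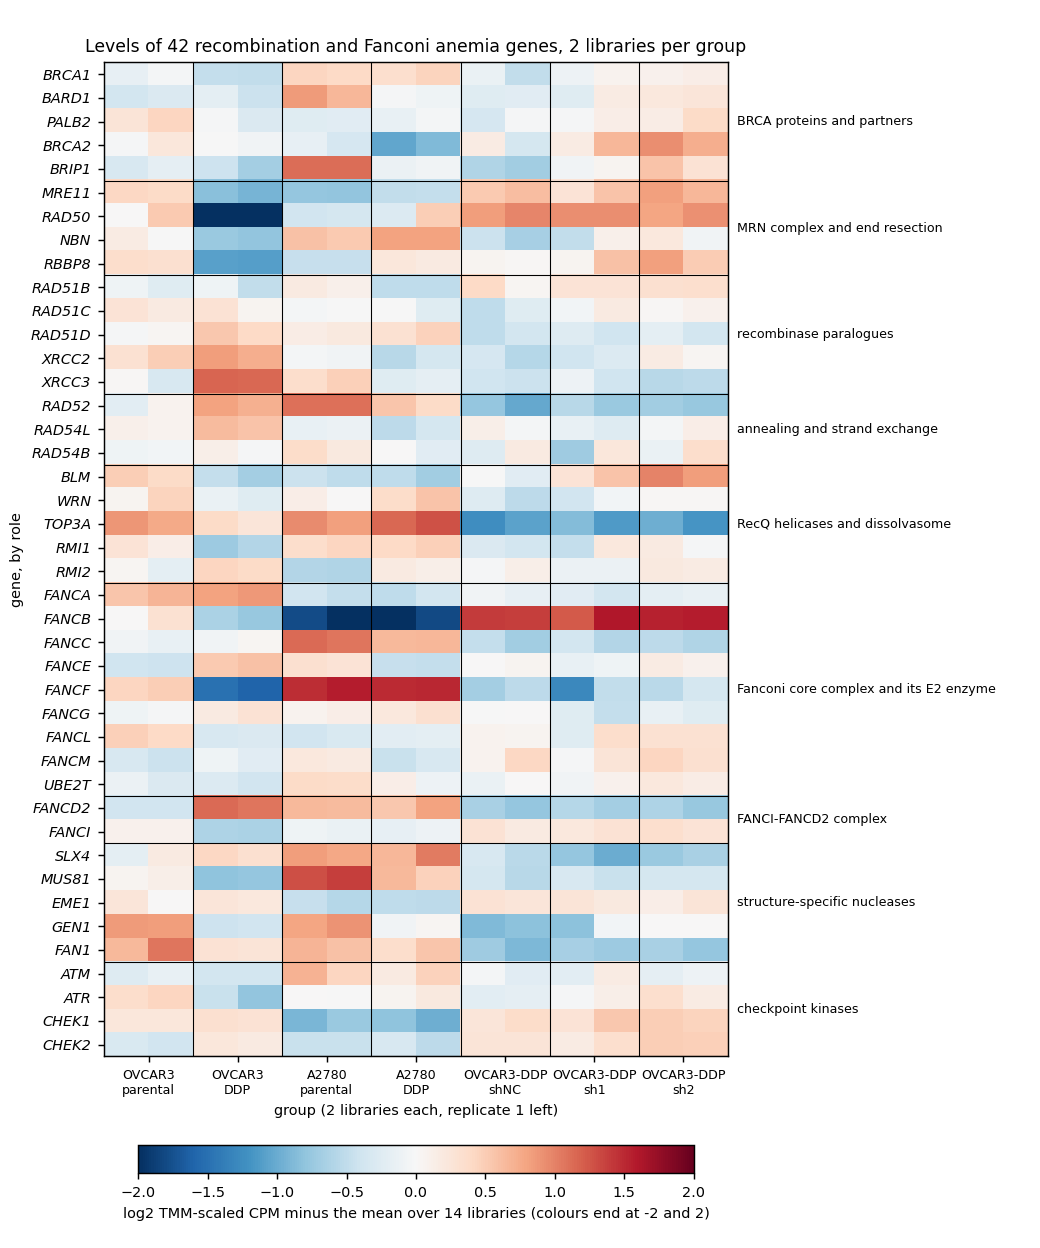
Log2 TMM-scaled CPM of the 42 members (rows, grouped by role) in 14 libraries (columns, 2 per group), as the difference from each gene's mean over the libraries; colours end at -2 and 2. The 2 libraries of a group mostly share a colour. RAD50 is dark blue in OVCAR3-DDP alone, and FANCB is dark blue in both A2780 groups. FANCF is lowest in OVCAR3-DDP (1.88 and 1.74 CPM), with sh1 replicate 1 (2.16 CPM) close to it.

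The first comparison asked how these genes differ between the libraries labelled OVCAR3-DDP and parental OVCAR3. Of the 42 members 28 passed edgeR's quasi-likelihood test at an adjusted p under 0.05, beside 68.5% of all 23031 genes tested: 9 rose and 19 fell, where 33.4% and 35.2% of all genes did. The median log2 change was -0.21 over the members and -0.03 over all genes. With a fold change of at least 1.5 as well, 18 members remained (14 lower), beside 56.9% of all genes. The share called was thus near the background, and what follows describes which roles stood on which side. With shNC against parental OVCAR3, 26 members passed, beside 51.5% of 24193 genes. Of the members 5 were higher and 21 lower, where 25.1% and 26.5% of all genes were. At least 1.5-fold as well were 15 members and 40.7% of genes. There the median was -0.32 over the members and 0.00 over all genes.

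All 4 genes of the MRN complex and end resection fell in OVCAR3-DDP. RAD50, the ATPase that bridges broken ends, was at 5.51 and 7.89 CPM in the parental libraries and at 0.929 and 0.752 CPM in those labelled DDP. It fell by 3.07 ± 0.32 (SE) on the log2 scale (edgeR adjusted p = 1.57e-06). MRE11, the nuclease of the complex, was at 81.2 and 79.1 CPM and then at 34.1 and 31.7 CPM, a log2 change of -1.36 ± 0.09 (adjusted p = 2.29e-08). RBBP8, or CtIP, which starts resection with MRE11, went from 95.4 and 92.9 to 35.1 and 34.7 CPM, a log2 change of -1.51 ± 0.09 (edgeR adjusted p = 5.27e-09). In all of these the 2 groups were far apart. Their libraries did not overlap, as for 36 members in this comparison. NBN, the subunit that binds the checkpoint kinase ATM, fell from 57.4 and 51.2 to 30.7 and 29.6 CPM, a log2 change of -0.93 ± 0.10 (edgeR adjusted p = 1.51e-06). With shNC the picture was another: RAD50 was at 9.81 and 10.7 CPM and MRE11 at 87.3 and 92.9 CPM, with log2 changes of 0.61 ± 0.23 (edgeR adjusted p = 0.0281) and 0.17 ± 0.11 (adjusted p = 0.221). RBBP8 gave -0.30 ± 0.13 (adjusted p = 0.0608), and NBN alone of the 4 fell there too, by 0.62 ± 0.15 (adjusted p = 0.00109). The rise of RAD50 with shNC lost its call without parental replicate 1 (edgeR adjusted p = 0.220), shNC replicate 1 (0.0621) or shNC replicate 2 (0.141). RAD50 shares 79.7% of its exon bases with an overlapping gene on the same strand, AC116366.3, which had 0 counts in the OVCAR3 groups, so reads that fit both may have gone to neither and the level of RAD50 is uncertain.

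The other large fall was that of FANCF, an adaptor of the Fanconi core complex. It was at 7.15 and 7.46 CPM in parental OVCAR3, 1.88 and 1.74 CPM in OVCAR3-DDP and 3.30 and 3.66 CPM with shNC. It thus fell in both groups, by 2.08 ± 0.16 (edgeR adjusted p = 9.89e-08) and by 1.07 ± 0.22 (adjusted p = 0.000245) on the log2 scale. FANCE, which links the core complex to FANCD2, rose in both: it was at 22.2 and 21.9 CPM in the parental line, 42.1 and 43.97 CPM in OVCAR3-DDP and 29.7 and 30.4 CPM with shNC, log2 changes of 0.89 ± 0.10 (adjusted p = 2.5e-06) and 0.44 ± 0.12 (edgeR adjusted p = 0.00274). FANCL, the ubiquitin ligase of the core complex, fell in both, by 0.82 ± 0.09 (adjusted p = 3.44e-06) and 0.37 ± 0.14 (edgeR adjusted p = 0.0244). The second of these calls was lost without parental replicate 1 or either shNC library (edgeR adjusted p from 0.0894 to 0.0966), and with other scalings, the 5 CPM filter or DESeq2's Wald test (0.0663 to 0.0839). FANCB, the partner of FANCL, was called with opposite signs. Its levels were 24.6 and 30.3 CPM in the parental line, 15.8 and 14.5 CPM in OVCAR3-DDP and 64.6 and 64.1 CPM with shNC, log2 changes of -0.94 ± 0.15 (edgeR adjusted p = 8.02e-05) and 1.23 ± 0.14 (adjusted p = 6.78e-08). The other 5 members of this group did not pass in OVCAR3-DDP: FANCA gave 0.15, FANCC 0.02, FANCG 0.21, FANCM 0.15 and UBE2T -0.20 ± 0.10 (edgeR adjusted p = 0.104). Without parental replicate 2, UBE2T passed (adjusted p = 0.0394). With shNC, FANCG gave 0.05 and UBE2T 0.13 ± 0.12 (edgeR adjusted p = 0.359).

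The pair that the core complex modifies changed in opposite directions in OVCAR3-DDP. FANCD2 was at 51.9 and 51.8 CPM in parental OVCAR3 and at 149 and 142 CPM in OVCAR3-DDP, a log2 rise of 1.41 ± 0.10 (edgeR adjusted p = 4.52e-08). FANCI, its partner in the clamp on DNA, was at 241 and 241 CPM and 147 and 146 CPM, a log2 change of -0.79 ± 0.08 (adjusted p = 1.79e-06). Per kilobase of exon, the level of FANCI was 5.02 times that of FANCD2 in the parental line and 1.09 times in OVCAR3-DDP. With shNC neither moved that way: FANCD2 was at 43.1 and 39.6 CPM, a log2 change of -0.33 ± 0.11 (edgeR adjusted p = 0.0189), and FANCI was at 276 and 258 CPM, 0.15 ± 0.10 (adjusted p = 0.21). The fall of FANCD2 with shNC lost its call without parental replicate 1 (edgeR adjusted p = 0.0526) and without shNC replicate 2 (0.155), with DESeq2's size factors (0.0619), with upper-quartile scaling (0.0808) and with the filter at a mean of 5 CPM (0.0592). FANCI stood at 6.97 times FANCD2 per kilobase with shNC.

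Among the BRCA proteins and their partners 3 of 5 fell in OVCAR3-DDP and none rose. BRCA1 went from 56.4 and 61.7 to 45.4 and 44.9 CPM, a log2 change of -0.47 ± 0.09 (edgeR adjusted p = 0.000648). PALB2, which joins BRCA1 to BRCA2, went from 21.03 and 23.8 to 17.3 and 14.4 CPM, a change of -0.58 ± 0.13 (adjusted p = 0.00136). BRIP1, the helicase that binds BRCA1, went from 18.8 and 20.8 to 17.7 and 14.8 CPM, a change of -0.37 ± 0.12 (edgeR adjusted p = 0.0133), and this call was lost without parental replicate 2 (adjusted p = 0.0706), without DDP replicate 2 (0.181), with upper-quartile scaling, no filter on low counts, the filter at a mean of 5 CPM and both other sets of libraries (edgeR adjusted p from 0.0592 to 0.0880), and its change was under 1.5-fold. BRCA2 itself did not pass, at 18.03 and 21.4 CPM and 18.3 and 17.4 CPM, -0.22 ± 0.13 on the log2 scale (edgeR adjusted p = 0.146), and passed once parental replicate 1 was left out (adjusted p = 0.0466). BARD1, the ring-finger partner of BRCA1, gave -0.05 ± 0.12 (adjusted p = 0.71) and 0.10 ± 0.14 with shNC (edgeR adjusted p = 0.598). With shNC, PALB2 (-0.52, edgeR adjusted p = 0.00642) and BRIP1 (-0.40, 0.0186) passed, whereas BRCA1 (-0.21, 0.157) and BRCA2 (-0.18, 0.408) did not. Those of PALB2 and BRIP1 were lost without parental replicate 2 (edgeR adjusted p = 0.0524 and 0.1104) or shNC replicate 1 (0.131 and 0.0560), and that of BRIP1 without shNC replicate 2 (0.117) or with upper-quartile scaling. BRCA1 passed without shNC replicate 1 (0.0341).

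The recombinase paralogues and the genes of annealing and strand exchange rose or did not pass in OVCAR3-DDP, and none of these 8 fell. XRCC3, which acts in a complex with RAD51C, was at 55.01 and 43.6 CPM in the parental line and at 121 and 120.0 CPM in OVCAR3-DDP, a log2 rise of 1.22 ± 0.11 (edgeR adjusted p = 4.66e-07). RAD52, which anneals single strands, was at 11.5 and 14.1 and 23.3 and 21.99 CPM, a rise of 0.74 ± 0.12 (adjusted p = 0.000137). RAD54L, the motor that helps strand exchange, was at 73.01 and 70.8 and 104 and 101 CPM, a rise of 0.44 ± 0.09 (edgeR adjusted p = 0.000931). None of the 3 rose with shNC: XRCC3 was at 41.3 and 40.4 CPM (-0.27, edgeR adjusted p = 0.0752), RAD52 at 7.88 and 6.63 CPM (-0.82, 0.000147) and RAD54L at 73.3 and 66.2 CPM (-0.04, 0.783). RAD51D and XRCC2 form part of a second paralogue complex. RAD51D rose by 0.39 ± 0.11 (edgeR adjusted p = 0.00761) and XRCC2 by 0.31 ± 0.11 (adjusted p = 0.0214), calls lost without DDP replicate 1 (adjusted p = 0.0865 and 0.147) and, for XRCC2, without parental replicate 1 (0.111). With shNC both fell, by 0.45 ± 0.14 (edgeR adjusted p = 0.0104) and 0.85 ± 0.13 (adjusted p = 5.97e-06), the former not without shNC replicate 1 (edgeR adjusted p = 0.104). RAD51B, RAD51C and RAD54B did not pass in OVCAR3-DDP, with log2 changes of -0.19, -0.12 and 0.04. With shNC RAD51B gave 0.39 ± 0.18 (edgeR adjusted p = 0.0712) and RAD54B 0.05.

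Exon bases of XRCC3 overlap those of KLC1 on the other strand for 76.7% of their length, and the strand setting of the counting is not given, so reads of the pair may not be told apart. KLC1, looked up after the values of XRCC3 were known, rose by 0.81 ± 0.10 (SE) in OVCAR3-DDP (edgeR adjusted p = 5.85e-06) and gave 0.04 ± 0.13 with shNC (adjusted p = 0.815). RAD54L shares 25.1% of its exon bases with LRRC41 on the other strand, which rose by 0.55 ± 0.09 (edgeR adjusted p = 0.000117) and gave 0.22 ± 0.10 with shNC (adjusted p = 0.0684). FANCL shares 19.7% with 2 genes there, of which VRK2 changed by -1.42 ± 0.10 (edgeR adjusted p = 5.11e-08) and by -0.68 ± 0.14 with shNC (adjusted p = 0.000179). RAD54B shares 59.1% with FSBP on its own strand, which rose by 1.69 ± 0.20 (edgeR adjusted p = 5.49e-06) and by 1.39 ± 0.24 with shNC (adjusted p = 2.71e-05). FANCF shares 11.3% with GAS2 on the other strand, a gene at 1.46 CPM in parental OVCAR3. GAS2 changed by -1.90 ± 0.34 (edgeR adjusted p = 0.000251) and by -1.40 ± 0.49 with shNC (adjusted p = 0.0192). FANCA shares 23.6% with ZNF276 on the other strand, which gave 0.46 ± 0.09 (edgeR adjusted p = 0.000394) and -0.95 ± 0.12 with shNC (adjusted p = 4.04e-07). EME1 shares 16.4% there with LRRC59, which gave -0.71 and, with shNC, 0.35. MUS81 shares 14.1% with EFEMP2 and CFL1, of which EFEMP2 gave 0.12 and, with shNC, 2.65. ATR shares 16.4% with AC109992.1, which was not looked up. The part of these neighbours in the members' values was not tested.

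All 5 genes of the RecQ helicases and the dissolvasome, the complex of BLM, TOP3A, RMI1 and RMI2 that separates joined DNA molecules without crossover, passed in OVCAR3-DDP, and 4 of them fell. BLM was at 49.3 and 45.8 CPM in the parental line and 25.3 and 21.9 CPM in OVCAR3-DDP, a log2 change of -1.09 ± 0.11 (edgeR adjusted p = 1.39e-06). RMI1, a scaffold subunit, changed by -0.93 ± 0.11 (adjusted p = 8.13e-06) and WRN, the Werner syndrome helicase, by -0.53 ± 0.14 (edgeR adjusted p = 0.00359). RMI2, the small subunit, rose by 0.41 ± 0.10 (adjusted p = 0.00284). TOP3A, the topoisomerase of the complex, was at 79.4 and 73.4 CPM in the parental line, 56.4 and 50.9 CPM in OVCAR3-DDP and 18.4 and 20.5 CPM with shNC. It fell in both groups, by 0.58 ± 0.10 (edgeR adjusted p = 0.000169) and by 1.97 ± 0.13 (adjusted p = 4.69e-12), the latter the largest change of any member with shNC. BLM (-0.55, edgeR adjusted p = 0.00125), RMI1 (-0.53, 0.0101) and WRN (-0.65, 0.000804) also fell with shNC, and RMI2 gave 0.12 ± 0.12 (adjusted p = 0.395). RMI1 lost its call there without parental replicate 1 (edgeR adjusted p = 0.0553) or shNC replicate 2 (0.0694).

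Of the structure-specific nucleases, which cut branched DNA, 3 of 5 fell in OVCAR3-DDP. GEN1, which resolves Holliday junctions, was at 30.9 and 30.6 CPM in parental OVCAR3, 12.8 and 13.1 CPM in OVCAR3-DDP and 9.30 and 9.69 CPM with shNC, log2 changes of -1.32 ± 0.11 (edgeR adjusted p = 1.68e-07) and -1.69 ± 0.18 (adjusted p = 1.64e-08). MUS81, which cuts with EME1, was at 101 and 105, 55.6 and 57.05 and 76.1 and 66.3 CPM in the same order, log2 changes of -0.95 ± 0.09 (adjusted p = 8.35e-07) and -0.53 ± 0.11 (edgeR adjusted p = 0.000211). FAN1, a crosslink nuclease recruited by FANCD2, was at 58.5 and 78.2, 45.7 and 44.6 and 22.8 and 20.1 CPM, log2 changes of -0.68 ± 0.13 (edgeR adjusted p = 0.000412) and -1.67 ± 0.14 (adjusted p = 3.15e-10). In these 3 genes both groups labelled DDP lay below both parental libraries. FAN1 shares 24.3% of its exon bases with MTMR10 on the other strand, which fell by 0.40 ± 0.10 (edgeR adjusted p = 0.00290) and by 1.51 ± 0.13 (adjusted p = 9.23e-10) in the same comparisons. EME1 gave 0.03 and SLX4, the scaffold that holds several nucleases, 0.28 in OVCAR3-DDP, neither of which passed. With shNC EME1 gave 0.14 and did not pass.

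The checkpoint kinases split. ATR, which responds to stalled forks, was at 49.8 and 52.2 CPM in parental OVCAR3, 28.6 and 22.6 CPM in OVCAR3-DDP and 33.7 and 34.2 CPM with shNC, log2 changes of -1.07 ± 0.12 (edgeR adjusted p = 2.82e-06) and -0.59 ± 0.13 (adjusted p = 0.000393). CHEK2, a target of ATM, rose in both, from 37.6 and 35.7 CPM to 54.5 and 52.5 and 55.8 and 55.6 CPM, by 0.47 ± 0.10 (edgeR adjusted p = 0.000781) and 0.60 ± 0.11 (adjusted p = 8.73e-05). ATM, the kinase of double-strand breaks, gave -0.24 ± 0.12 (edgeR adjusted p = 0.0901) and 0.07 ± 0.13 (adjusted p = 0.703), and CHEK1, the target of ATR, -0.00 and 0.08. The members with shNC not yet given that passed were FANCM (0.63), FANCA (-0.74), RAD51C (-0.60), FANCC (-0.47) and SLX4 (-0.43). Without shNC replicate 2, FANCM (edgeR adjusted p = 0.0611), FANCC (0.0791) and SLX4 (0.171) lost their call, and SLX4 also without parental replicate 2 (0.252) and with upper-quartile scaling (0.0561). The plot of both OVCAR3-DDP groups sets all members side by side.

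**Figure D2:**
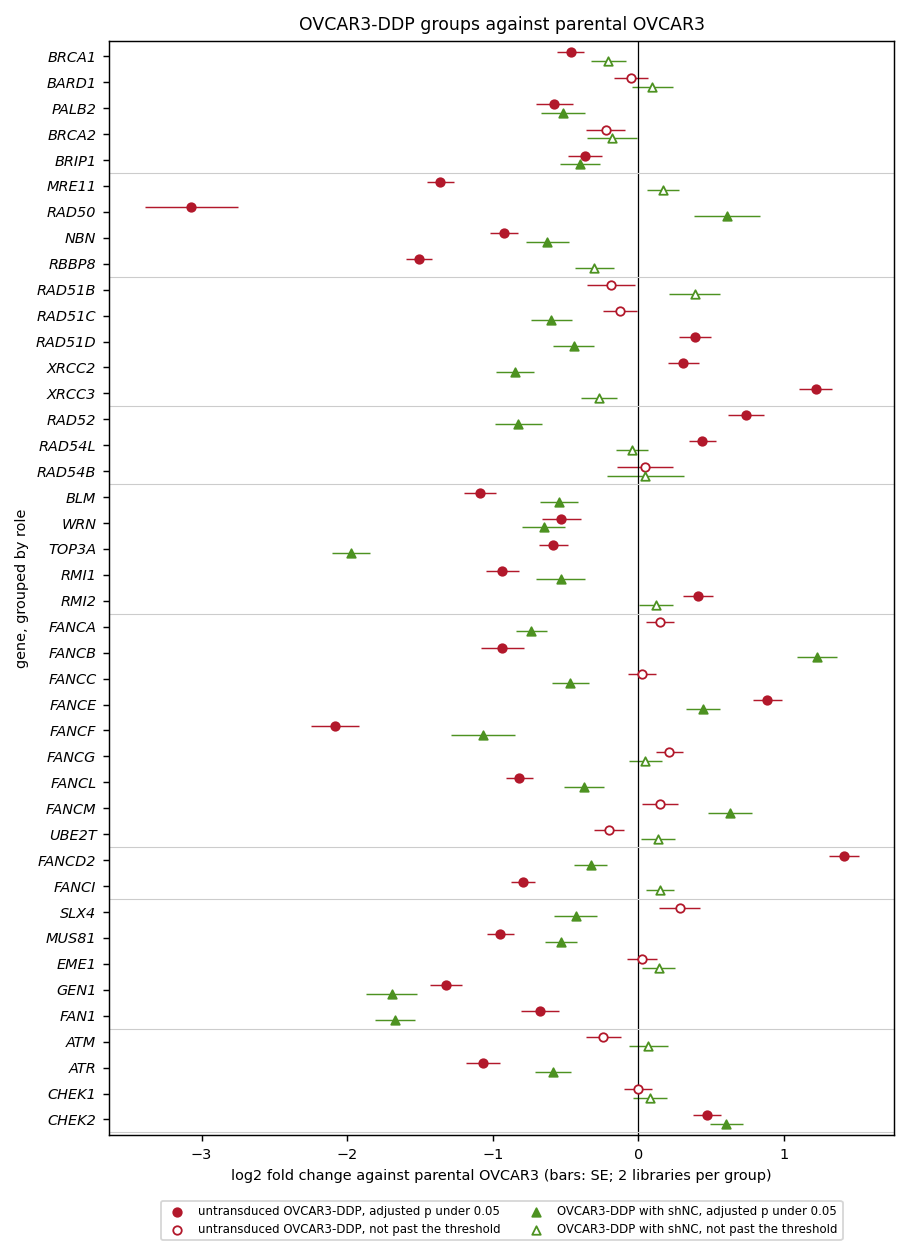
Log2 fold change against parental OVCAR3 (horizontal axis, bars are SE) of each member (vertical axis, grouped by role) in untransduced OVCAR3-DDP (circles) and in OVCAR3-DDP with shNC (triangles), filled where the adjusted p was under 0.05. RAD50 stands at -3.07 and 0.61 and FANCD2 at 1.41 and -0.33, whereas GEN1 stands at -1.32 and -1.69.

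The same question was asked of A2780. Of the 42 members 19 passed, beside 35.3% of all 23031 genes: 5 rose and 14 fell, against 18.0% and 17.3% of all genes. The median log2 change was -0.05 over the members and 0.00 over all genes. Of the 19, 11 still passed without parental replicate 1, and the number was 13 to 17 without any other single A2780 library. At least 1.5-fold as well were 12 members and 23.4% of all genes, and 1 member, BRIP1, exceeded a 2-fold change.

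BRIP1 had the largest change in A2780. It was at 51.3 and 50.96 CPM in the parental libraries and 21.6 and 22.3 CPM in A2780-DDP, a log2 change of -1.24 ± 0.11 (edgeR adjusted p = 2.26e-06). BARD1 went from 48.5 and 42.99 to 26.5 and 25.6 CPM, a change of -0.84 ± 0.11 (adjusted p = 7.49e-05). BRCA2 went from 16.3 and 14.5 to 8.95 and 9.90 CPM, a change of -0.73 ± 0.14 (edgeR adjusted p = 0.00106). These 3 partners thus fell. Their groups did not overlap, but that held for 29 members in A2780, 12 higher and 17 lower. The 3 are named because they were called, so it adds no evidence. BRCA1, at 85.7 and 83.5 and 80.02 and 86.6 CPM, overlapped and gave -0.05 ± 0.09 (edgeR adjusted p = 0.749), and PALB2 gave 0.11 ± 0.13 (adjusted p = 0.554).

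No gene of the MRN complex and end resection fell in A2780. RBBP8 rose from 53.9 and 53.9 to 86.7 and 84.2 CPM, by 0.64 ± 0.09 (edgeR adjusted p = 7.06e-05), and MRE11 from 35.6 and 35.3 to 43.3 and 43.4 CPM, by 0.27 ± 0.09 (adjusted p = 0.0382). The call of MRE11 was lost without either parental library (edgeR adjusted p = 0.114 and 0.135) and without DDP replicate 1 (0.0591). RAD50 was at 4.20 and 4.30 and 4.53 and 7.73 CPM, with libraries of A2780-DDP far apart, and gave 0.50 ± 0.27 (adjusted p = 0.179). NBN gave 0.23 ± 0.09 (edgeR adjusted p = 0.0736).

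The paralogues and annealing genes that passed in A2780 all fell. XRCC3 went from 69.5 and 75.4 to 45.9 and 47.7 CPM, a log2 change of -0.65 ± 0.11 (edgeR adjusted p = 0.000501), and its overlapping neighbour KLC1 changed by -0.37 ± 0.10 (adjusted p = 0.00933). RAD52 went from 28.8 and 28.8 to 19.6 and 17.6 CPM, a change of -0.66 ± 0.12 (edgeR adjusted p = 0.000962). RAD51B, a paralogue of low level, changed by -0.67 ± 0.17 (adjusted p = 0.00708), XRCC2 by -0.42 ± 0.11 (edgeR adjusted p = 0.0101) and RAD54L by -0.33 ± 0.09 (adjusted p = 0.0163). These last calls rest on single libraries: without parental replicate 1 the edgeR adjusted p was 0.0765 for RAD51B, 0.107 for XRCC2 and 0.128 for RAD54L. XRCC2 and RAD54L also lost theirs without parental replicate 2 (0.0709 and 0.164) and without DDP replicate 1 (0.120 and 0.174). RAD51C (-0.12), RAD51D (0.19) and RAD54B (-0.41) did not pass.

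Among the RecQ helicases and the dissolvasome, the members that passed in A2780 rose. RMI2 went from 29.04 and 28.9 to 49.5 and 47.4 CPM, a rise of 0.72 ± 0.10 (edgeR adjusted p = 0.000125), and this call held without any 1 library. WRN rose by 0.38 ± 0.14 (adjusted p = 0.0424) and TOP3A by 0.31 ± 0.10 (edgeR adjusted p = 0.0296). Both lost their call without parental replicate 1 (edgeR adjusted p = 0.0654 and 0.0503), parental replicate 2 (0.173 and 0.159) or DDP replicate 2 (0.142 and 0.0775). BLM, at 25.99 and 24.7 and 24.6 and 21.8 CPM, gave -0.15 ± 0.11 (adjusted p = 0.334), and RMI1 0.02 ± 0.11 (edgeR adjusted p = 0.918).

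Of the Fanconi core complex and UBE2T, 4 of 9 fell in A2780 and none rose. FANCE went from 36.6 and 35.6 to 21.3 and 21.04 CPM, a change of -0.80 ± 0.10 (edgeR adjusted p = 3.11e-05). FANCM, the translocase that brings the complex to DNA, changed by -0.59 ± 0.12 (adjusted p = 0.00213) and FANCC, a core subunit, by -0.46 ± 0.09 (edgeR adjusted p = 0.0018). UBE2T went from 81.5 and 81.2 to 68.9 and 58.3 CPM, a change of -0.38 ± 0.10 (edgeR adjusted p = 0.0114). The calls of FANCC and UBE2T were lost without parental replicate 1 (edgeR adjusted p = 0.0536 and 0.129), and UBE2T also without parental replicate 2 (0.112) or DDP replicate 2 (0.193). FANCD2, at 106 and 105 and 98.95 and 118 CPM, gave 0.01 ± 0.10 (adjusted p = 0.983), and FANCI gave -0.05 ± 0.08. FANCA (-0.03), FANCB (-0.05), FANCF (-0.04), FANCG (0.15) and FANCL (0.11) did not pass either.

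MUS81 and GEN1 fell in A2780 as well. MUS81 was at 239 and 255 CPM in the parental libraries and 152 and 134 CPM in A2780-DDP, a log2 change of -0.81 ± 0.09 (edgeR adjusted p = 1.42e-05). GEN1 was at 29.6 and 31.9 and 16.2 and 17.6 CPM, a change of -0.89 ± 0.11 (adjusted p = 3.02e-05). The groups did not overlap in either gene, as for 29 members in A2780. SLX4 (0.03), EME1 (-0.03) and FAN1 (-0.20) did not pass. No checkpoint kinase passed in A2780: ATM gave -0.27 ± 0.12 (edgeR adjusted p = 0.0938), ATR 0.09 ± 0.12 (adjusted p = 0.579), CHEK1 -0.09 and CHEK2 -0.00. Without DDP replicate 2, ATM passed (edgeR adjusted p = 0.0474).

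**Figure D3:**
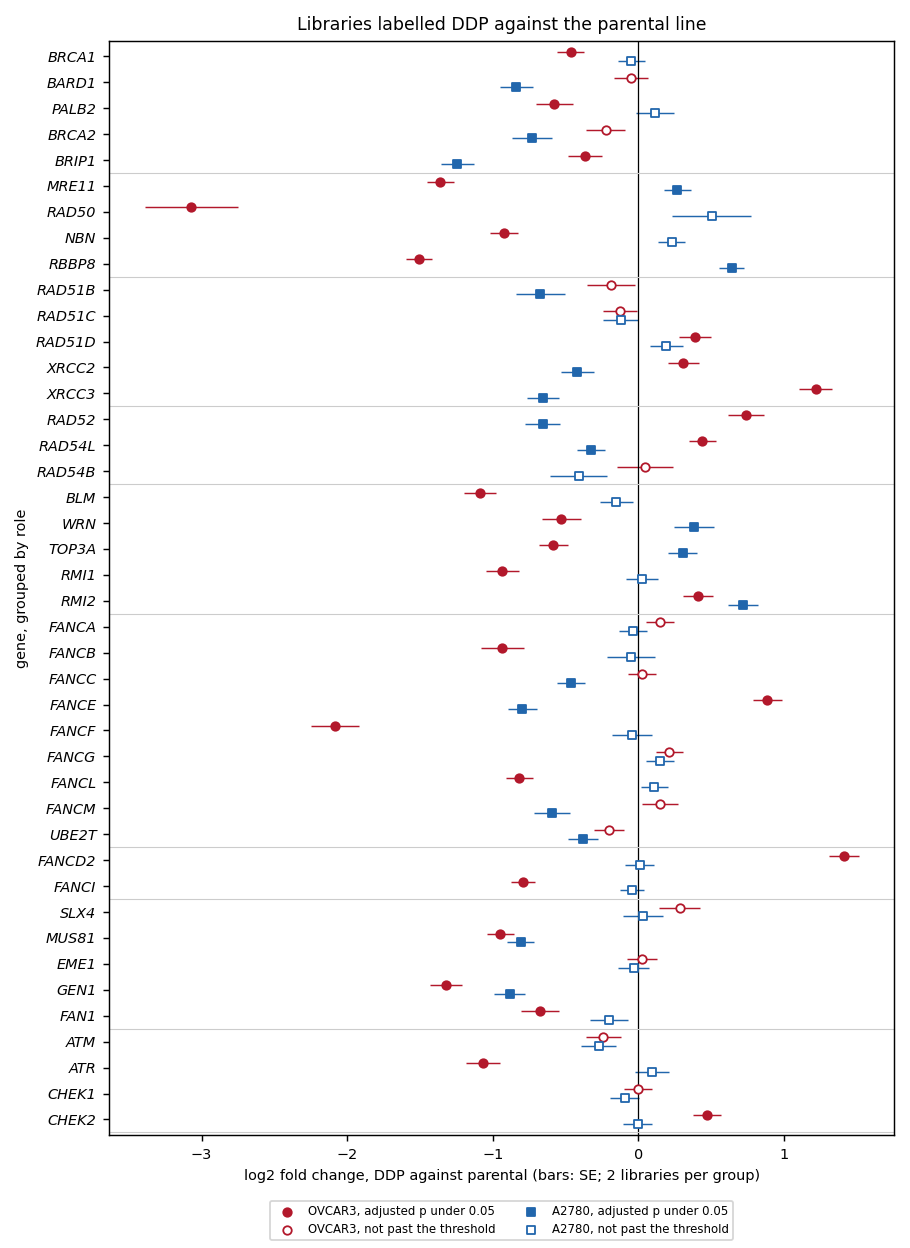
Log2 fold change of the DDP libraries against their parental line (horizontal axis, bars are SE) for each member (vertical axis, grouped by role) in OVCAR3 (circles) and A2780 (squares), filled where the adjusted p was under 0.05. The circles of the MRN complex all lie left of 0, from -3.07 to -0.93, and the squares right of it, while GEN1 and MUS81 lie left in both lines.

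The lines were then compared directly, by the difference between their changes, which uses separate controls. For 29 of 42 members this difference passed, beside 53.8% of all genes, 12 with a higher value in OVCAR3 (26.9% of all genes) and 17 with a lower one (26.9%). Of the members called in the lines, 13 were called in both, 46.4% of the OVCAR3 calls and 68.4% of the A2780 calls. Over all genes 26.8% were called in both, 39.1% of the OVCAR3 calls and 75.9% of the A2780 calls, so the share called in both was near the background. For 9 of the 13 the signs were opposite, as for 42.6% of all genes called in both (11.4% of all genes tested). XRCC2, XRCC3, RAD52, RAD54L and FANCE rose in OVCAR3 and fell in A2780, and MRE11, RBBP8, WRN and TOP3A did the reverse. BRIP1, MUS81 and GEN1 fell in both and RMI2 rose in both, and 8 members (RAD51C, RAD54B, FANCA, FANCG, SLX4, EME1, ATM and CHEK1) were called in neither. All 4 genes of end resection differed between the lines, RAD50 by -3.57 ± 0.42 (edgeR adjusted p = 9.44e-06), RBBP8 by -2.15 ± 0.12 (adjusted p = 9.54e-09), MRE11 by -1.63 ± 0.13 (adjusted p = 2.31e-07) and NBN by -1.16 ± 0.13 (adjusted p = 7.85e-06). XRCC3 (1.87 ± 0.16, edgeR adjusted p = 3.95e-07) and FANCE (1.68 ± 0.14, 2.88e-07) differed most the other way. For MUS81 the difference was -0.14 ± 0.13 (edgeR adjusted p = 0.4). GEN1 fell further in OVCAR3, by 0.44 ± 0.15 (adjusted p = 0.0277), a difference that lost its call without OVCAR3 parental replicate 1, either OVCAR3-DDP library, either A2780 parental library or A2780-DDP replicate 2. ATM gave 0.03 ± 0.17 (edgeR adjusted p = 0.935) and UBE2T 0.18 ± 0.15 (adjusted p = 0.333). Since the OVCAR3-DDP libraries stood apart in their markers, what the difference owes to the line and what to those libraries cannot be told apart.

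The hairpin libraries addressed what follows ADAR1 loss in OVCAR3-DDP cells. ADAR, the target, was at 454 and 500.0 CPM with shNC, between 262 and 308 CPM with sh1 and between 118 and 119.8 CPM with sh2. Its log2 change was -0.71 ± 0.11 (SE) with sh1 (edgeR adjusted p = 0.00123) and -1.99 ± 0.11 with sh2 (adjusted p = 2.07e-09), so sh2 gave the deeper knockdown. For the mean of both hairpins against shNC 9 members passed, beside 11.9% of all 19044 genes, and all 9 rose, where 5.94% of all genes did. With sh2 alone 10 rose (all genes: 14.3% called, 7.23% higher), and with sh1 alone 2 rose (3.81% and 1.96%). Of these, 4 for the mean, 6 with sh2 and 1 with sh1 also reached 1.5-fold, beside 4.02%, 7.25% and 2.19% of all genes. No member fell in any of these comparisons. The median log2 change was 0.13 over the members for the mean, 0.13 with sh1 and 0.18 with sh2, and 0.00, 0.02 and 0.00 over all genes.

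BRIP1 and BLM, both DNA helicases, were the members called with each hairpin. BRIP1 was at 15.5 and 14.6 CPM with shNC, 22.4 and 24.6 CPM with sh1 and 34.9 and 28.9 CPM with sh2. Its libraries did not overlap, in the order shNC, sh1, sh2, and the log2 rise was 0.67 ± 0.15 with sh1 (edgeR adjusted p = 0.0171), 1.10 ± 0.15 with sh2 (adjusted p = 0.00019) and 0.89 ± 0.14 for their mean (adjusted p = 0.000603). BLM was at 35.01 and 30.1 CPM with shNC, 42.3 and 51.9 CPM with sh1 and 69.5 and 62.7 CPM with sh2. It showed the same order with no overlap, and rose by 0.56 ± 0.14 with sh1 (edgeR adjusted p = 0.0318), 1.04 ± 0.14 with sh2 (adjusted p = 0.000171) and 0.80 ± 0.13 for the mean (adjusted p = 0.000761). For sh2 and the mean both kept their call in every alternative run. For sh1 both lost it without shNC replicate 1 (edgeR adjusted p = 0.132 for BRIP1 and 0.113 for BLM) and without shNC replicate 2 (0.232 and 0.408). Both genes hold CCAAT words in the stretches shown above, as do 17 of the 37 members with an entry.

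Other members of the BRCA group rose too. BRCA2 was at 20.4 and 14.4 CPM with shNC, 20.4 and 29.1 CPM with sh1 and 34.8 and 30.2 CPM with sh2. The sh1 libraries straddled the space between the other groups, the lower one level with the higher shNC library. The log2 change of BRCA2 was 0.73 ± 0.16 for the mean (edgeR adjusted p = 0.00852), 0.92 ± 0.18 with sh2 (adjusted p = 0.0032) and 0.54 ± 0.19 with sh1 (adjusted p = 0.111). BRCA1 was at 57.5 and 44.96, 59.04 and 66.2 and 67.2 and 69.8 CPM in the same order of groups, with changes of 0.38 ± 0.12 (mean, edgeR adjusted p = 0.0446), 0.44 ± 0.14 (sh2, 0.0365) and 0.32 ± 0.14 (sh1, 0.199). BARD1 rose with sh2, by 0.48 ± 0.15 (edgeR adjusted p = 0.0425), from 22.8 and 23.1 to 31.2 and 31.9 CPM. PALB2 gave 0.36 ± 0.14 for the mean (adjusted p = 0.108). Of these calls, that of BRCA1 was lost without either shNC library (edgeR adjusted p = 0.0945 and 0.612) and without either sh2 library (0.126 and 0.121) for the mean, and that of BRCA2 without shNC replicate 2 (0.238 for the mean and 0.0740 for sh2).

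GEN1, RBBP8 and NBN made up most of the rest. GEN1 was at 9.30 and 9.69 CPM with shNC, 9.70 and 16.5 CPM with sh1 and 17.2 and 17.2 CPM with sh2, log2 changes of 0.69 ± 0.18 for the mean (edgeR adjusted p = 0.0213) and 0.88 ± 0.21 with sh2 (adjusted p = 0.00846). RBBP8 was at 77.2 and 75.3, 77.1 and 112 and 131 and 106 CPM, changes of 0.50 ± 0.14 (edgeR adjusted p = 0.0224) and 0.66 ± 0.15 (adjusted p = 0.00825). NBN was at 38.2 and 32.2, 36.4 and 55.2 and 59.1 and 48.8 CPM, changes of 0.52 ± 0.15 (edgeR adjusted p = 0.0299) and 0.64 ± 0.17 (adjusted p = 0.0183). In all 3 genes sh1 replicate 1 lay within 2 CPM of a shNC library and sh1 replicate 2 near or above the lower sh2 library. The mean's calls of these 3 were lost without shNC replicate 1 (edgeR adjusted p = 0.155 for GEN1, 0.138 for RBBP8 and 0.0830 for NBN) and without shNC replicate 2 (0.132, 0.193 and 0.328), and those of RBBP8 and NBN also without sh2 replicate 1 (0.101 and 0.106). The other 2 genes of the MRN complex did not pass: MRE11 gave 0.04 ± 0.11 and RAD50 0.01 ± 0.15 for the mean.

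ATR was at 33.7 and 34.2 CPM with shNC, 38.2 and 42.03 CPM with sh1 and 48.9 and 43.7 CPM with sh2. The 3 groups did not overlap, and the log2 change was 0.37 ± 0.12 for the mean (edgeR adjusted p = 0.0469), 0.47 ± 0.13 with sh2 (adjusted p = 0.0253) and 0.27 ± 0.13 with sh1 (adjusted p = 0.279). RAD51C, a paralogue, rose by 0.45 ± 0.14 for the mean (edgeR adjusted p = 0.0358), from 16.99 and 20.6 CPM to 23.4 and 27.5 CPM with sh1 and 24.6 and 25.9 CPM with sh2. XRCC2 rose with sh2 by 0.57 ± 0.14 (edgeR adjusted p = 0.0123), from 27.1 and 22.8 to 38.3 and 34.9 CPM. For the mean, the calls of ATR and RAD51C were lost without either shNC library and without either sh2 library (edgeR adjusted p from 0.0832 to 0.462). With sh2, the calls of ATR, XRCC2, BARD1 and BRCA1 were lost without either shNC library and without sh2 replicate 1, NBN and RBBP8 without shNC replicate 2 or sh2 replicate 1, and GEN1 without shNC replicate 1 or sh2 replicate 1 (edgeR adjusted p from 0.0510 to 0.476). ATR, BARD1 and BRCA1 also lost theirs without sh2 replicate 2 (0.0734 to 0.189). ATM (0.08 ± 0.12, edgeR adjusted p = 0.705), UBE2T (0.19 ± 0.11, 0.279) and FANCD2 (0.08 ± 0.11, 0.688) did not pass for the mean, and no gene of the Fanconi core complex did.

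**Figure D4:**
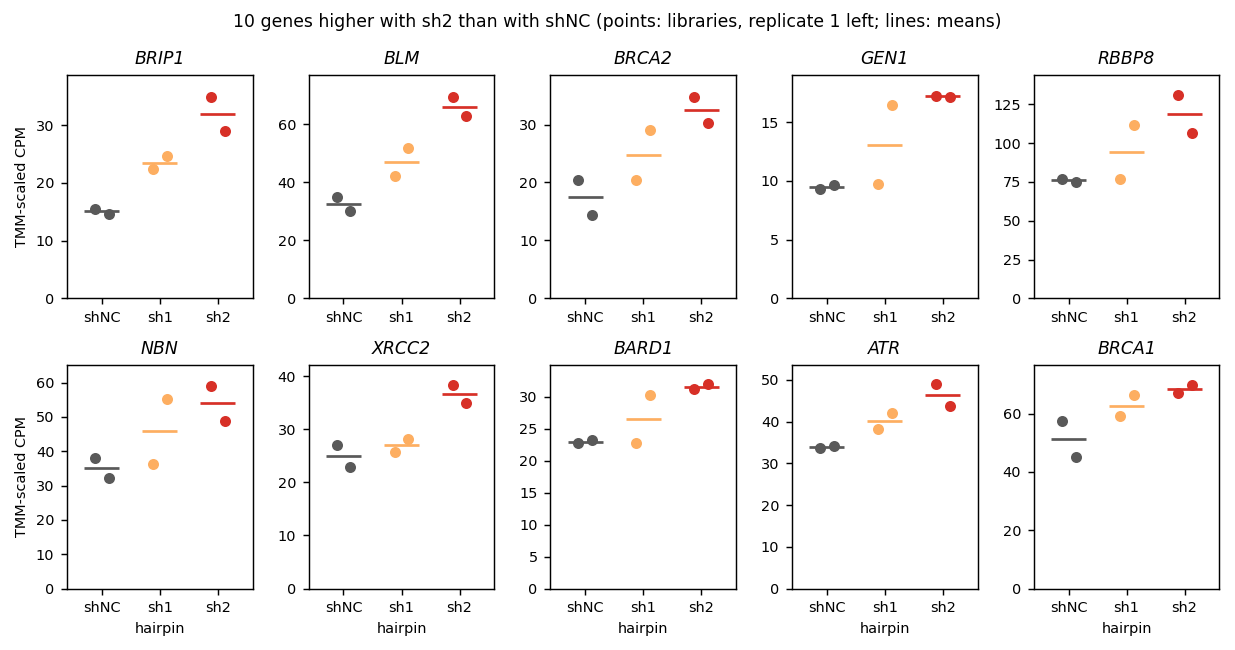
TMM-scaled CPM (vertical axes, from 0) of the 10 members called with sh2, in OVCAR3-DDP libraries with shNC, sh1 and sh2 (points, 2 libraries per group, replicate 1 left; lines are group means). Every sh2 point lies above both shNC points, but the genes were picked by this same difference, so that adds no evidence. In GEN1, RBBP8 and NBN the sh1 libraries lie far apart, for example at 9.70 and 16.5 CPM in GEN1.

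The 2 sh1 libraries differed from each other across the list. Summed over the 42 members, levels were 1791 and 1722 CPM with shNC, 1742 and 1934 CPM with sh1 and 2077 and 1998 CPM with sh2. In sh1 replicate 1, 13 of 42 members lay nearer the sh2 mean than the shNC mean, and in sh1 replicate 2, 27 did. The same count was not made over all genes, in which the sh1 libraries also differed (chi-square per gene 21.1). It is thus not shown to be particular to these members. Without sh1 replicate 1, 15 members passed with sh1 (13 higher and 2 lower) and 20 for the mean, while the share of all genes called grew to 22.5% and 31.5%. Without either shNC library 0 members passed with sh1, and 3 (without replicate 1) or 2 (without replicate 2) for the mean, beside at most 1.69% of all genes, and 4 passed for the mean without sh2 replicate 1 (3.60% of all genes). With sh2 fewer members, and a smaller share of all genes, passed without shNC replicate 1, shNC replicate 2 or sh2 replicate 1. The members' median log2 change was then 0.18, 0.25 and 0.16. Set directly against each other, sh2 and sh1 gave 0 called members by edgeR, beside 1.92% of all genes. DESeq2's Wald test called 1 member, beside 5.03% of all genes. At an unadjusted edgeR p under 0.05 were 7 of the 42 members and 3128 of all 19044 genes, which is a like share. Among the 7, BLM differed by 0.48 ± 0.14 (edgeR adjusted p = 0.0815), BRIP1 by 0.43 ± 0.15 (0.139) and XRCC2 by 0.43 ± 0.14 (0.127). Without sh1 replicate 2, 17 members passed in this comparison, beside 21.5% of all genes.

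Other genes of the same pathways were taken from a list of 49 that holds no member. In OVCAR3-DDP 19 of them rose and 18 fell, 75.5% of the list beside 68.5% of all genes, with a median log2 change of -0.07. With shNC against parental OVCAR3 5 rose and 24 fell, 59.2% beside 51.5% of all genes, with a median of -0.34. In A2780-DDP 8 rose and 12 fell, 40.8% beside 35.3% of all genes. For the hairpin mean 10 of the 48 tested rose and none fell, 20.8% called beside 11.9% of all genes. With sh2 12 rose and none fell, 25% called beside 14.3%. Of all genes 5.94% were higher for the mean and 7.23% with sh2. The other 38 and 36 were not called. The median log2 change of the list was 0.19 for the mean and 0.25 with sh2. ERCC4, the crosslink nuclease XPF, rose by 0.87 for the mean (edgeR adjusted p = 0.00180), SFR1, a recombination mediator, by 0.77 (adjusted p = 0.00772), and HELQ, a helicase, by 0.66 (adjusted p = 0.0233). Of 16 genes of end joining, the competing way to repair a break, 4 rose and 1 fell for the mean, 5 rose and 8 fell in OVCAR3-DDP and 4 rose and 4 fell with shNC. In that order the shares called were 31.25%, 81.25% and 50%, beside 11.9%, 68.5% and 51.5% of all genes. In OVCAR3-DDP POLN, a translesion polymerase, rose by 3.22 (edgeR adjusted p = 0.000769) and MDC1, a platform for ATM signalling, by 1.91 (adjusted p = 3.29e-08), whereas BRCC3, of a complex that binds BRCA1, fell by 1.64 (adjusted p = 4.24e-08). With shNC BRCC3 fell too, by 1.10 (edgeR adjusted p = 3.62e-07), whereas MDC1 fell by 1.18 (adjusted p = 9.50e-08) and POLN gave -2.45 (adjusted p = 0.147).

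Many members are transcribed mainly in cycling cells, so 2 lists of cell cycle genes were read beside them, 25 genes each. Of the mitosis list 2 rose and 18 fell in OVCAR3-DDP, and 1 rose and 19 fell in A2780-DDP. Of all genes 33.4% rose and 35.2% fell in OVCAR3-DDP, and 18.0% and 17.3% in A2780-DDP. Its summed level ran from 3561 to 3734 CPM in parental OVCAR3, from 2511 to 2521 CPM in OVCAR3-DDP, from 3776 to 3884 CPM in parental A2780 and from 2580.4 to 2643 CPM in A2780-DDP. With shNC it rose instead, with 14 genes higher and 4 lower than in parental OVCAR3 and a sum of 4799 to 4860.1 CPM. Of the list for entry into DNA synthesis, 10 rose and 13 fell in OVCAR3-DDP, 15 rose and 1 fell in A2780-DDP, and 5 rose and 15 fell with shNC. With shNC 25.1% of all genes were higher than in parental OVCAR3 and 26.5% lower. With sh1 6 mitosis genes fell and none rose, with sh2 5 rose and 1 fell, and the sums were 3823 to 4107 CPM and 4927 to 5014 CPM. Of all genes 1.96% rose and 1.85% fell with sh1, and 7.23% and 7.04% with sh2. The part of the cell cycle in the members' changes was not tested. In bulk libraries, fewer cells in a phase and less RNA per cell cannot be told apart. The ovarian markers also moved with the hairpins: 8 of the 12 tested fell for the mean and none rose, where 5.98% of all genes fell.

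The parental lines differed in these genes before any resistance label. Of the 42 members 28 passed, beside 66.0% of all genes, 13 higher in OVCAR3 (32.3% of all genes) and 15 higher in A2780 (33.7%). FANCB was at 24.6 and 30.3 CPM in OVCAR3 and 7.07 and 6.10 CPM in A2780, a difference of 2.03 ± 0.16 (edgeR adjusted p = 9.43e-08). It was followed on the OVCAR3 side by MRE11 (1.15), CHEK1 (1.03), FANCA (1.02), BLM (0.88), RBBP8 (0.78), FANCL (0.75), EME1 (0.61), PALB2 (0.55), RMI2 (0.49), XRCC2 (0.42), ATR (0.36) and BRCA2 (0.33). On the A2780 side BRIP1 was at 18.8 and 20.8 CPM in OVCAR3 and 51.3 and 50.96 CPM in A2780, a difference of -1.39 ± 0.11 (edgeR adjusted p = 1.71e-07), and MUS81 at 101 and 105 and 239 and 255 CPM, a difference of -1.29 ± 0.09 (adjusted p = 4.1e-08). FANCC (-1.24), RAD52 (-1.19), BARD1 (-1.12), FANCF (-1.08) and FANCD2 (-1.06) also exceeded 2-fold, and SLX4 (-0.82), ATM (-0.80), FANCE (-0.74), UBE2T (-0.60), FANCM (-0.60), XRCC3 (-0.58), BRCA1 (-0.54) and NBN (-0.50) were higher in A2780 by less. Over these 28 the SE ran from 0.09 to 0.16, and the highest edgeR adjusted p was 0.0414. The call of BRCA2 was lost without OVCAR3 replicate 2 (edgeR adjusted p = 0.256), A2780 replicate 1 (0.0700) or A2780 replicate 2 (0.274), and that of ATR without A2780 replicate 1 (0.0738) or 2 (0.0924). In A2780-DDP, BRIP1 (21.6 and 22.3 CPM) and BARD1 (26.5 and 25.6 CPM) stood close to their levels in parental OVCAR3 (18.8 and 20.8 CPM and 20.9 and 22.03 CPM).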

How the data were processed

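The values used are raw counts per gene deposited by the authors, 1 file per library with 62757 genes. Per the submitters' processing notes, reads were checked with FastQC 0.11.9, aligned with STAR 2.7.8a to GRCh38.p13, handled with SAMtools and counted with HTSeq 2.0.3. Total RNA came by Trizol, per the labels. Which annotation release, strand setting and read layout were used is not given in the sources. Reads on no gene were 48.7% to 50.0% of all reads, ambiguous reads 2.09% to 2.48%; both stayed out of library sizes. In hairpin libraries 4.64% to 4.99% of reads had several alignments, in others 2.36% to 3.22%.

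Tests used edgeR 4.0.16 (quasi-likelihood F-test, TMM, filterByExpr at a minimum count of 10, Benjamini-Hochberg adjustment over all genes tested, threshold 0.05). The 8 parental and DDP libraries formed 1 fit (23031 genes, 4 residual degrees of freedom), the 6 hairpin libraries another (19044, 3) and all 14 the last, used for shNC against parental OVCAR3 (24193, 7). Biological coefficients of variation were 0.104, 0.106 and 0.106. All 42 members were tested in each. The scripts were tested on simulated data. Lengths and overlaps came from GENCODE 29, promoters from RefSeq.

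Alternatives used DESeq2 1.42.0 size factors and Wald test, upper-quartile scaling, a filter at a mean of 5 CPM, none at all, limma-voom 3.58.1, other sets of libraries, a replicate block, a fold change of at least 1.5, and each library left out. Every member is named. Fold change, SE and adjusted p are given for members past the threshold in the DDP and hairpin comparisons, and for the others in full or by ranges; of each other list up to 4 genes past the threshold with the largest change may be named. The members and lists were chosen with earlier results of these data known. Replicates differed beyond sampling noise, most in parental OVCAR3 (chi-square per gene 31.5), sh1 (21.1) and A2780-DDP (18.0). In the other groups it was 3.88 to 5.01. Parental OVCAR3 is the reference of both OVCAR3-DDP comparisons.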

Additional observations from a re-analysis of the deposited data

Results flagged for a closer look

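For 29 members the change from parental to DDP libraries differed between OVCAR3 and A2780, by edgeR's test of the difference between the 2 changes (adjusted p under 0.05, as for 53.8% of all genes). Values are the log2 change in OVCAR3 minus that in A2780. In end resection they were RAD50 (-3.57), RBBP8 (-2.15), MRE11 (-1.63) and NBN (-1.16), with a fall in OVCAR3 in all of them. Among the BRCA proteins and partners they were BRIP1 (0.88), BARD1 (0.79), BRCA2 (0.51), BRCA1 (-0.42) and PALB2 (-0.69). The first 3 of these fell further in A2780, the others in OVCAR3. Among paralogues and annealing genes they were XRCC3 (1.87), RAD52 (1.40), RAD54L (0.77) and XRCC2 (0.73), each higher in OVCAR3-DDP and lower in A2780-DDP than in the parental line.

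Among the RecQ helicases and the dissolvasome the differences were RMI1 (-0.96), BLM (-0.93), WRN (-0.91) and TOP3A (-0.89). In the Fanconi core complex they were FANCE (1.68), FANCM (0.74), FANCC (0.48), FANCF (-2.04), FANCL (-0.93) and FANCB (-0.88), and for the pair it modifies FANCD2 (1.40) and FANCI (-0.75). The remaining ones were ATR (-1.16), FAN1 (-0.47), GEN1 (-0.44) and CHEK2 (0.47). The smallest lost their call without single libraries: BRCA1, BRCA2, GEN1 and FAN1 without OVCAR3-DDP replicate 1, together with CHEK2 (edgeR adjusted p from 0.0552 to 0.122), the same 4 and FANCC without OVCAR3-DDP replicate 2 (0.0524 to 0.121), and the same 4 without A2780 parental replicate 1 (0.0692 to 0.157). No group held enough libraries for a test of outlying samples.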

How the results depend on the processing

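Over the 42 members in all comparisons, 378 results, and 5025 alternative values, 4749 kept their side of the threshold, 167 lost a call (121 of them with a library left out) and 109 gained one (56 with a library left out, 24 of these without sh1 replicate 1 and 18 without sh1 replicate 2). No call was made with the other sign. The numbers of called members held within 1.5 times except as follows. With a fold change of at least 1.5 added, 18 members remained called in OVCAR3, 12 in A2780, 4 for the hairpin mean, 1 with sh1, 6 with sh2 and 15 with shNC against parental OVCAR3. With the compared groups fitted alone, 1 was called with sh1 and 17 with sh2. For sh2 against sh1, 1 was called with no filter on low counts and 1 by DESeq2's Wald test, beside 1.96% and 5.03% of all genes. Leaving out 1 library gave 11 to 17 in A2780, 2 to 20 for the hairpin mean, 0 to 15 with sh1, 3 to 7 with sh2 and 0 to 17 for sh2 against sh1; the cause was not tested. The share of all genes called moved with the library left out as well. Upper-quartile scaling moved the median log2 change of all genes in OVCAR3 from -0.03 to 0.07, and BRIP1 lost its call there. FANCG and SLX4 passed in OVCAR3 with DESeq2's size factors. With shNC against parental OVCAR3, FANCL and FANCD2 lost their call with these factors, BRIP1, FANCL, FANCD2 and SLX4 with upper-quartile scaling, FANCL, FANCD2 and SLX4 with a mean of 5 CPM, and BRIP1, FANCL and SLX4 with DESeq2's Wald test. In the hairpin mean ATR lost its call with DESeq2's size factors and upper-quartile scaling, and BRCA1 with the latter.

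Replicate numbers do not pair the samples: deviations of same-numbered libraries correlated at -0.16 for OVCAR3 parental and DDP, -0.25 for A2780, 0.05 for shNC and sh1, -0.02 for shNC and sh2 and -0.31 for sh1 and sh2 over 13003 genes. Across the lines they correlated at 0.51 for parental OVCAR3 and A2780-DDP, 0.14 for OVCAR3-DDP and parental A2780, -0.17 for the parental groups and -0.11 for the DDP groups. With a replicate block, 28 members were called in OVCAR3, 19 in A2780, 29 for their difference and 7 for the hairpin mean, where BRCA1 and ATR lost theirs. The 2 libraries per group limit the precision, and where 1 was left out, the lone library is assumed to vary like the rest. RAD50 and FANCF in OVCAR3-DDP rest on few counts.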
